A study of Homo sapiens with 6 samples.

Results

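The genes described here are 10 genes of membrane budding and cargo sorting: the PACSINs (PACSIN1, PACSIN2, PACSIN3), the stonins (STON1, STON2), the mu subunits of the clathrin adaptors AP-1 and AP-2 (AP1M1, AP1M2, AP2M1) and the EH domain proteins EHD1 and EHD4. They were taken by symbol from a count table of 63677 genes, and all 10 were found. They were chosen with the levels and calls of these libraries known, so their levels, fold changes and calls are given as a description and not as tests.

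HEK293 is a human embryonic kidney cell line. Cells were transfected, using Lipofectamine RNAiMAX, with an NTC siRNA (the control), with siRNA against the circular RNA circRAB3IP (siRAB3IP) or with siRNA against the circular RNA circCAMSAP1 (siCAMSAP1). RNA was collected in TRIzol 48 hours later, and poly(A) RNA was sequenced from 6 libraries, 2 in each of the 3 groups. All groups share the transfection, and the labels do not state whether paired libraries of a group came from different cultures, so the errors measure the spread between libraries that may be technical repeats.

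PACSINs are F-BAR proteins that bind and bend membranes and recruit dynamin and N-WASP, and PACSIN2 is best known for its place at caveolae. Clathrin adaptors link cargo to the clathrin coat: AP-2 works at the plasma membrane, AP-1 at the trans-Golgi network and endosomes, and the mu subunit of each reads tyrosine-based sorting signals. Stonins carry a domain related to mu, and STON2 sorts synaptotagmin. EHD proteins are ATPases that remodel endosomal membranes and bind NPF motifs such as those of some PACSINs.

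The sample records and the authors' deposited tables disagree on the group of 4 of the 6 libraries. In the knockdown records, moreover, the title and the genotype field name opposite circular RNAs, so which knockdown a value belongs to rests on the table names. Each of 8 normalized columns in the deposited tables was a multiple of 1 count column (tolerance 1e-09 in log2), and the groups used here are those of the table names. Grouped by the record titles, 0 genes were called in each of the 3 comparisons by edgeR's quasi-likelihood test, with 350, 441 and 471 genes at an unadjusted p under 0.05 for siRAB3IP against control, siCAMSAP1 against control and siRAB3IP against siCAMSAP1. Values by record titles are given below beside those of the genes that were called. Assigned fragments ranged from 37379217 to 39637733 a library. Of the markers of the cell line, VIM was at 173 to 326 CPM (fragments scaled to a library total of 1000000), whereas NEFM and PAX2 were under 1 CPM in every library. INA was at 1.69 and 1.49 CPM in control, 4.56 and 4.12 CPM in siRAB3IP, and 2.35 and 2.19 CPM in siCAMSAP1. The blood markers PTPRC, HBB and CD3E summed to at most 0.0757 CPM in any library. The table has no rows for circular RNAs, so the knockdown itself was not checked here.

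The promoters of PACSIN2 and AP1M2 are shown because these genes, alone among the 10, were called in the siCAMSAP1 comparison of the main fit. Sequences are the 250 bases before a RefSeq transcript start on GRCh38.p14, read 5′ to 3′ on the minus strand, at chr22:43015150-43015399 for the most upstream PACSIN2 start and chr19:10587313-10587562 for AP1M2. Capitals mark GC boxes.
PACSIN2: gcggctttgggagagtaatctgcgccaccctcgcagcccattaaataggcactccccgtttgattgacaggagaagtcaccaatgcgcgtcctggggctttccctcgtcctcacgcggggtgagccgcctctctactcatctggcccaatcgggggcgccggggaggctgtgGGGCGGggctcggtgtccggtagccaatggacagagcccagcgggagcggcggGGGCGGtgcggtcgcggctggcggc
AP1M2: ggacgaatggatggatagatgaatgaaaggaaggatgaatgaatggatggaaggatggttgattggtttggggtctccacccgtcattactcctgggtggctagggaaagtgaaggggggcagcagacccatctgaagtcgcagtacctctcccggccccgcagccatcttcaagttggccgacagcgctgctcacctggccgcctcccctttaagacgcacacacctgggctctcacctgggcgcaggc
The motifs searched on both strands were the GC box (GGGCGG), the TATA box (TATAAA), the AP-1 transcription factor element (TGANTCA), the cAMP response element (TGACGTCA) and the NF-kB element. The PACSIN2 stretch holds 2 GC boxes and is 68.0% G or C. The AP1M2 stretch holds none of the 5 motifs and is 58.0% G or C, the same as the median of 35116 RefSeq promoters. A GC box stands in 42.6% of those promoters. These matches describe the letters of the window and no binding was measured.

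PACSIN2, the widely expressed PACSIN, was lower in siCAMSAP1. Its levels were 64.9 and 61.0 CPM in control, 61.6 and 68.2 CPM in siRAB3IP, and 32.0 and 31.6 CPM in siCAMSAP1 (replicates 1 and 2 of each group, as throughout). Both siCAMSAP1 libraries lay below all 4 others, and the control and siRAB3IP libraries overlapped. The log2 fold change was -0.95 ± 0.09 (SE, 2 libraries against 2) in siCAMSAP1 against control, a 1.94-fold lower level. It was 0.11 ± 0.09 in siRAB3IP against control, which was not called. PACSIN2 lies on chromosome 22 (hg19, 43231418 to 43411151, minus strand). Of its 4545 exon bases, 155 (3.41%) are shared with ARFGAP3, an ARF GTPase-activating protein gene on the same strand. Fragments that fit both genes equally were not assigned. ARFGAP3 was at 44.4 and 43.8 CPM in control and 48.7 and 47.6 CPM in siCAMSAP1, so it did not show the lower level of PACSIN2. Grouped by record titles, PACSIN2 differed from control by -0.35 ± 0.34 in siCAMSAP1 and was not called.

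PACSIN3, the PACSIN known from muscle and lung, was lower in siRAB3IP. It was at 66.4 and 65.7 CPM in control, 47.4 and 46.5 CPM in siRAB3IP, and 65.4 and 61.9 CPM in siCAMSAP1. Both siRAB3IP libraries were below all others. The log2 fold change in siRAB3IP against control was -0.43 ± 0.08, a 1.35-fold lower level. In siCAMSAP1 it was -0.02 ± 0.08 and was not called. The siRAB3IP value ranged from -0.46 to -0.39 over the 16 alternatives that keep the grouping, and the call ended in 1 of them, without siRAB3IP replicate 2. By record titles the value was 0.16 ± 0.17, of the other sign.

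PACSIN1, the neuronal PACSIN, was scarce, with 52 to 88 fragments a library. It was at 1.50 and 1.31 CPM in control, 1.82 and 1.71 CPM in siRAB3IP, and 2.18 and 2.25 CPM in siCAMSAP1. The libraries of the 3 groups did not overlap, yet neither difference from control was called: the log2 fold changes were 0.39 ± 0.23 and 0.68 ± 0.23. Per length, as RPKM (CPM per kilobase of exon), the 3 PACSINs summed in control to 38.2 ± 0.825 (SD, n = 2), against 31.7 ± 0.764 in siRAB3IP and 30.6 ± 0.956 in siCAMSAP1. The sum was thus lower in both knockdowns than in control while its make-up differed. PACSIN2 made up 36.3% ± 0.795 of it in control, 45.0% ± 2.14 in siRAB3IP and 22.9% ± 0.524 in siCAMSAP1. PACSIN3 made up the larger share in every library, from 52.4% to 76.0%.

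**Figure D1:**
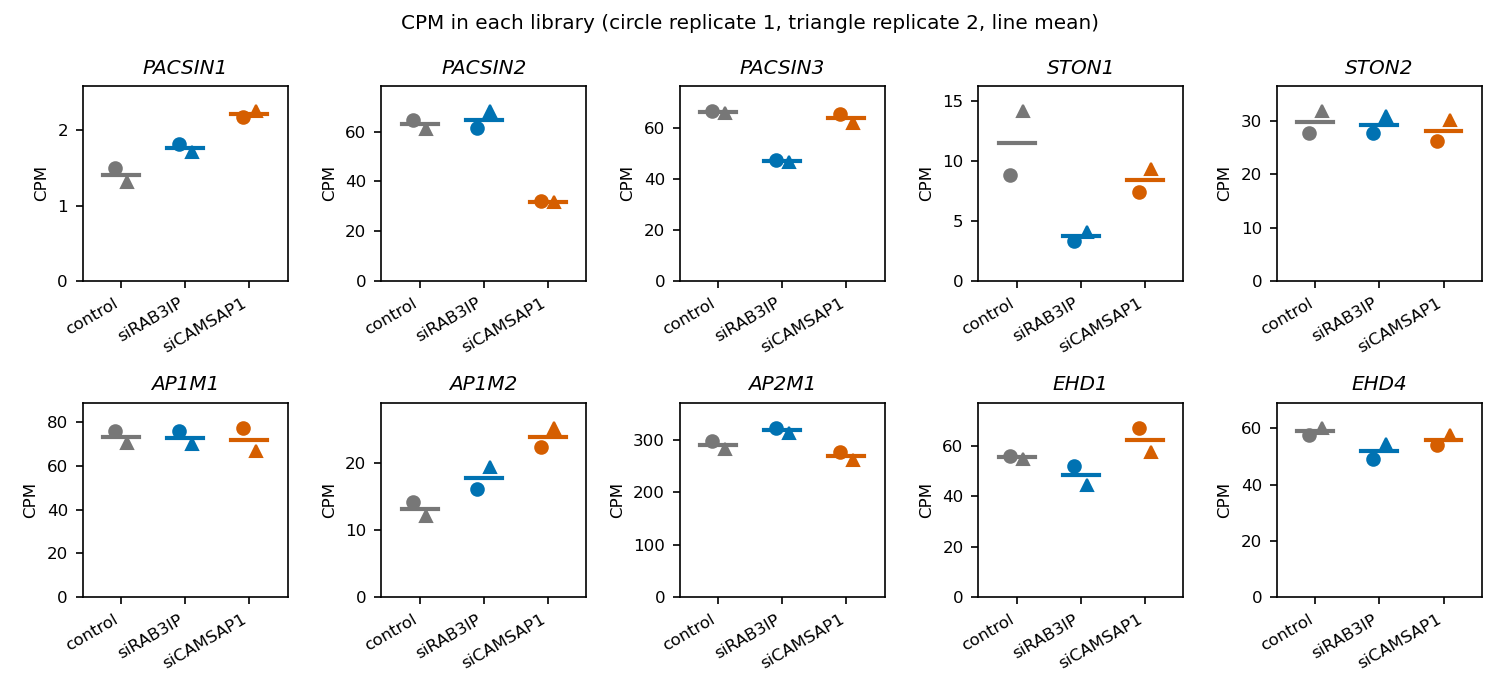
CPM (vertical axes, each from 0) of the 10 genes in each of the 6 libraries by group. Circles are replicate 1, triangles replicate 2 and lines the group mean. PACSIN2 is near 32 CPM in both siCAMSAP1 libraries and above 60 CPM in the others, and STON1 is lowest in both siRAB3IP libraries.

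STON1, a stonin with a mu-like domain, had the largest fold change of the 10 genes. Its levels were 8.77 and 14.1 CPM in control, 3.31 and 4.09 CPM in siRAB3IP, and 7.40 and 9.31 CPM in siCAMSAP1. Both siRAB3IP libraries lay below all others, whereas control and siCAMSAP1 overlapped. The control libraries themselves differed, at 328 and 559 fragments. The log2 fold change in siRAB3IP against control was -1.56 ± 0.21, a 2.95-fold lower level, and ranged from -1.84 to -1.21 over the 16 alternatives that keep the grouping, in all of which it was called. In siCAMSAP1 it was -0.42 ± 0.19, which was not called in the main fit and was called with a replicate block (-0.40 ± 0.12). By record titles the siRAB3IP value was 0.78 ± 0.47, of the other sign.

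STON1 lies on chromosome 2 (hg19, 48756522 to 48826025, plus strand). Of its 8082 exon bases, 2244 (27.8%) belong also to the readthrough gene STON1-GTF2A1L, which had 0 to 4 fragments of its own in each library. Fragments that fit both genes equally were not assigned, so they are missing from the STON1 counts. Of its 50-base words, 38.3% occur in transcripts of other genes, STON1-GTF2A1L among them.

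STON2, the stonin that sorts synaptotagmin, was at 27.7 and 31.8 CPM in control, 27.7 and 30.9 CPM in siRAB3IP, and 26.3 and 30.1 CPM in siCAMSAP1. The 3 groups overlapped. The log2 fold changes were 0.04 ± 0.10 in siRAB3IP and -0.04 ± 0.10 in siCAMSAP1. Their intervals (1.96 SE either side) ran from -0.15 to 0.24 and from -0.24 to 0.15. STON1 made up 23.8% ± 4.29 of the stonin RPKM in control, 9.42% ± 0.617 in siRAB3IP and 19.6% ± 1.05 in siCAMSAP1. These STON1 shares are understated. The exon bases shared with STON1-GTF2A1L (27.8%) count in its length, while fragments that fit both genes equally were not assigned to it.

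The genes whose log2 CPM followed STON1 most closely over the 6 libraries (11782 genes averaging 5 CPM or more) were IPO8 (Pearson r 0.998), ENSG00000268032, NBPF1, SEPTIN11 and ANKS6, the last at 0.996. The 6 points share the same libraries and depth, and the correlation is a description. IPO8, an importin, was at 76.0 and 84.2 CPM in control, 62.8 and 64.8 CPM in siRAB3IP, and 74.0 and 78.1 CPM in siCAMSAP1. Its range was narrower than that of STON1, with the lowest values in the same 2 libraries.

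AP1M2 encodes mu1B, the AP-1 subunit of polarized epithelia that sorts proteins to the basolateral surface. It was at 14.3 and 12.2 CPM in control, 16.2 and 19.4 CPM in siRAB3IP, and 22.5 and 25.3 CPM in siCAMSAP1. The 3 groups did not overlap, and control was lowest. The log2 fold change was 0.88 ± 0.13 in siCAMSAP1 (1.84-fold higher) and 0.49 ± 0.13 in siRAB3IP (1.40-fold higher). The siCAMSAP1 call held in all 16 alternatives that keep the grouping, with a range of 0.74 to 1.04. The siRAB3IP call ended without control replicate 2 or without siRAB3IP replicate 2. By record titles the values were 0.53 ± 0.27 and 0.14 ± 0.27, neither called.

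EPCAM and CDH1 were under 1 CPM in every library. The 4 epithelial markers, nearly all KRT8 and KRT18, summed to 1292 to 1380 CPM in control, 745 to 929 CPM in siRAB3IP and 1066 to 1103 CPM in siCAMSAP1. The lower sum in both knockdowns is that of KRT8 and KRT18. EPCAM was at 0.294 and 0.202 CPM in control, 0.308 and 0.210 CPM in siRAB3IP, and 0.537 and 0.332 CPM in siCAMSAP1. CDH1 was at 0.0803 and 0.454 CPM in control, 0.154 and 0.367 CPM in siRAB3IP, and 0.230 and 0.995 CPM in siCAMSAP1. The CDH1 groups overlapped. These values rest on 8 to 21 fragments a library for EPCAM and 3 to 39 for CDH1. The part of these markers in the AP1M2 values was not tested. In bulk RNA of 1 cell line, fewer cells with a transcript and less of it per cell cannot be told apart.

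AP1M1 encodes mu1A, the widely expressed AP-1 mu. It was at 76.0 and 70.4 CPM in control, 75.6 and 69.9 CPM in siRAB3IP, and 77.2 and 66.5 CPM in siCAMSAP1. The groups overlapped, with log2 fold changes of 0.05 ± 0.10 and 0.00 ± 0.10. AP1M2 made up 23.7% ± 1.11 of the AP-1 mu RPKM in control, 29.7% ± 3.77 in siRAB3IP and 36.5% ± 4.39 in siCAMSAP1. AP1M1 thus remained the larger share in every library.

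**Figure D2:**
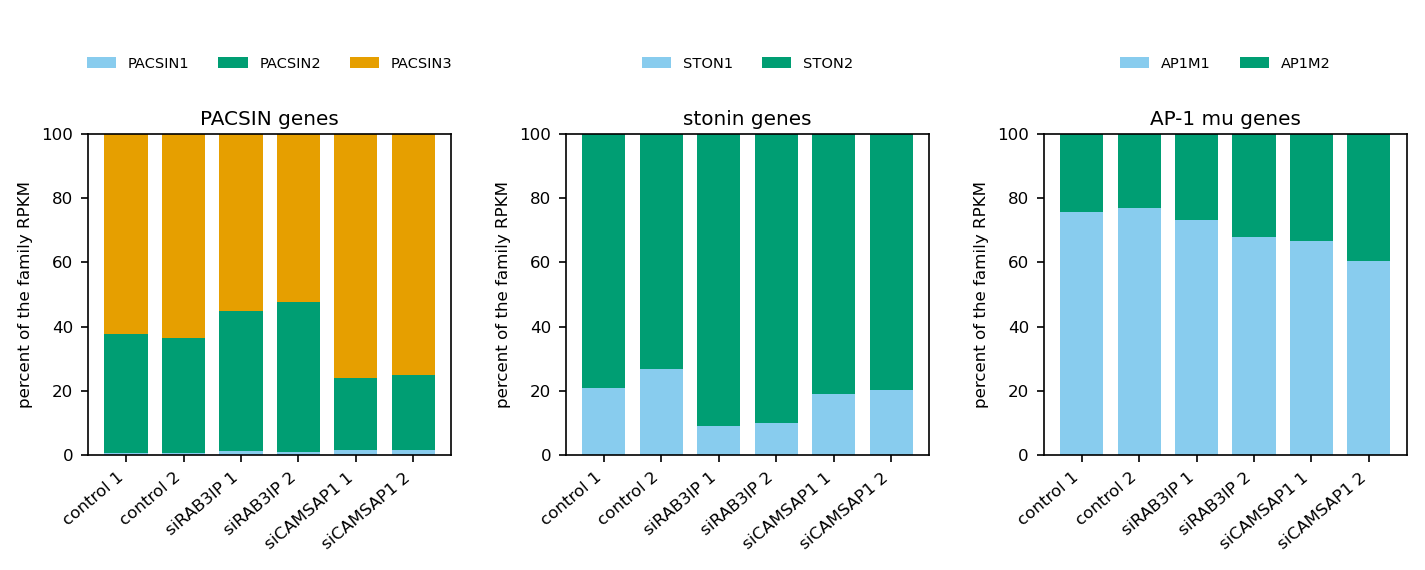
Share of each gene in the summed RPKM of its family (vertical axis, percent, from 0 to 100) in each of the 6 libraries, for the PACSINs, the stonins and the AP-1 mu subunits. PACSIN2 is 22.5% and 23.2% in the siCAMSAP1 libraries against 35.7% to 46.5% in the others, and AP1M2 is largest in siCAMSAP1 replicate 2.

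AP2M1, the mu subunit of the plasma membrane adaptor, was the most abundant of the 10 genes per length, at 61.3 ± 2.30 RPKM (SD, n = 2) in control. It was at 299 and 283 CPM in control, 323 and 314 CPM in siRAB3IP, and 277 and 261 CPM in siCAMSAP1. On CPM, the siRAB3IP libraries lay above control and the siCAMSAP1 libraries below it. The log2 fold changes were 0.19 ± 0.08 and -0.08 ± 0.08, neither called. With a replicate block the siRAB3IP difference (0.19 ± 0.05) was called.

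EHD1, which returns receptors from the recycling endosome, was at 56.0 and 54.8 CPM in control, 52.1 and 44.5 CPM in siRAB3IP, and 67.0 and 57.4 CPM in siCAMSAP1. On CPM, the siRAB3IP libraries lay below control and the siCAMSAP1 libraries above it. The log2 fold changes were -0.14 ± 0.11 and 0.20 ± 0.10, neither called. EHD4, which acts at early endosomes, was at 57.7 and 60.1 CPM in control, 49.1 and 54.4 CPM in siRAB3IP, and 54.0 and 57.7 CPM in siCAMSAP1. Its log2 fold changes were -0.12 ± 0.08 and -0.04 ± 0.08, neither called.

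Per length in control, the order below AP2M1 was PACSIN3 (24.0 RPKM), AP1M1 (19.2), PACSIN2 (13.9), EHD4 (11.6), EHD1 (7.82), AP1M2 (5.99), STON2 (4.45), STON1 (1.42) and PACSIN1 (0.298). No neighbours in that order overlapped between the 2 control libraries. In siCAMSAP1, AP1M2 (10.1 and 11.4 RPKM) overlapped EHD4 (10.7 and 11.4 RPKM), and PACSIN2 (7.04 and 6.96 RPKM) lay below EHD1 (9.45 and 8.09 RPKM). In siRAB3IP, PACSIN3 (17.2 and 16.9 RPKM) lay below AP1M1 (19.8 and 18.3 RPKM).

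In siRAB3IP against control, 3 of the 10 genes were called, 1 higher and 2 lower, where 11.6% of all 22331 genes tested were called, 6.39% higher and 5.24% lower; these values chose the genes, and nothing is read from the share. In siCAMSAP1 against control, 2 were called, 1 higher and 1 lower, where 0.940% of all genes were called, 0.448% higher and 0.493% lower. Both libraries of siRAB3IP lay above both of control for 3 of the 10 genes and below for 4, as they did for 20.3% and 34.3% of all genes. Both of siCAMSAP1 lay above for 3 and below for 3, against 17.2% and 24.1% of all genes. Overlaps are read on CPM, without the TMM scaling factors of edgeR that the fold changes and calls use. Those factors were 1.001 and 1.044 in control, 0.9706 and 0.9865 in siRAB3IP, and 0.9938 and 1.006 in siCAMSAP1. Narrow separations on CPM, such as EHD1 in siRAB3IP and AP2M1 in siCAMSAP1 against control, do not hold after that scaling. The median log2 fold change of the 10 genes was 0.04 and -0.03, against -0.01 and 0.00 over all genes tested. The comparisons share the control libraries. In the authors' deposited tables, which hold genes past their own threshold, the same genes appear: STON1 at -1.53 ± 0.23, PACSIN3 at -0.42 ± 0.11 and AP1M2 at 0.49 ± 0.18 for siRAB3IP, and PACSIN2 at -0.96 ± 0.10 and AP1M2 at 0.88 ± 0.16 for siCAMSAP1.

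**Figure D3:**
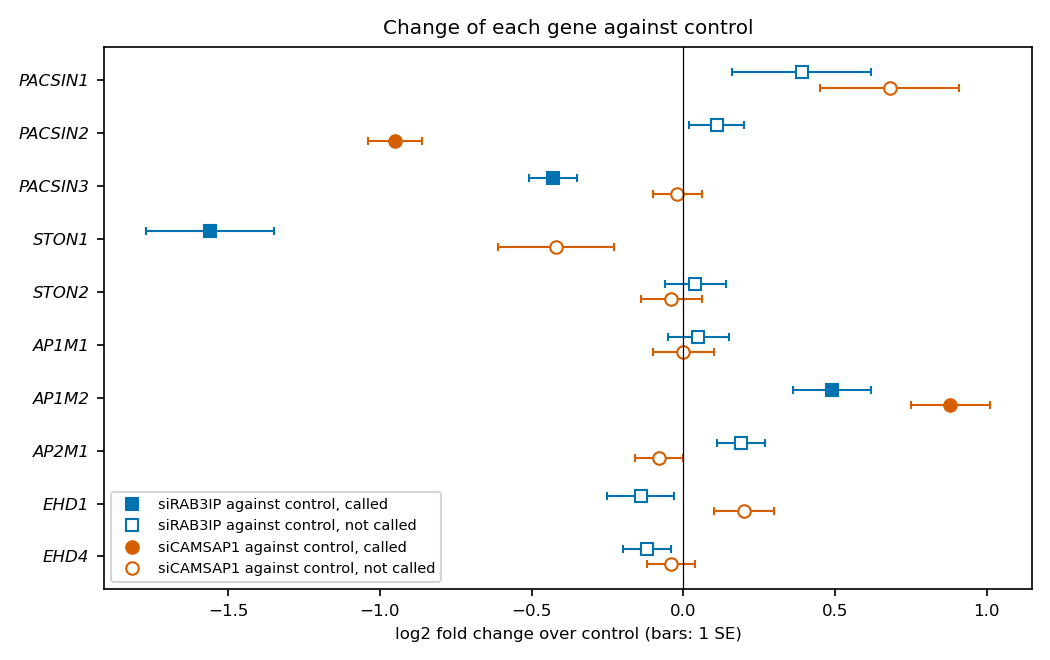
Log2 fold change over control (horizontal axis) of the 10 genes in siRAB3IP (squares) and siCAMSAP1 (circles), with bars of 1 SE. Filled symbols were called over all genes tested. STON1 is farthest below 0 in siRAB3IP (-1.56), and PACSIN2 in siCAMSAP1 (-0.95).

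Set directly against each other, siRAB3IP and siCAMSAP1 differed in PACSIN2 (log2 difference 1.06 ± 0.09, higher in siRAB3IP), STON1 (-1.14 ± 0.21, lower in siRAB3IP) and PACSIN3 (-0.41 ± 0.08, lower in siRAB3IP). These 3 were called, where 8.85% of all genes were called, 4.89% higher and 3.96% lower. Both siRAB3IP libraries lay above both siCAMSAP1 libraries for 2 of the 10 genes and below for 5, against 23.3% and 29.9% of all genes. The PACSIN3 call ended without siRAB3IP replicate 2 or siCAMSAP1 replicate 1. AP1M2 (-0.39 ± 0.12), AP2M1 (0.27 ± 0.08) and EHD1 (-0.33 ± 0.10) were not called. Over the 16 alternatives that keep the grouping, AP2M1 was called in 9, AP1M2 in 5 and EHD1 in 4, the replicate block among them for all 3, where 20.7% of all genes were called. By record titles PACSIN2, STON1 and PACSIN3 differed by -0.15 ± 0.34, 0.64 ± 0.47 and 0.24 ± 0.17, each of the other sign. The genotype field of the records would swap the knockdown names, and with them the sign of these differences.

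The wider machinery was read from a list of 74 other genes of clathrin coats, adaptors, dynamins, BAR proteins and cargo, all tested. In siRAB3IP against control, 5 rose and 4 fell in the quasi-likelihood test of edgeR, adjusted over all genes by the Benjamini-Hochberg method, with a list median of 0.01. In siCAMSAP1 against control, 2 rose and 0 fell, with a median of 0.03. Of all genes tested, 11.6% and 0.940% were called in these comparisons. With a replicate block the counts called were 23 and 6, where 24.1% and 6.31% of all genes were called. None of the 4 clathrin chains was called in either comparison.

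Of the adaptor partners, AP2B1, the beta subunit of AP-2, rose in siRAB3IP (0.27 ± 0.07, adjusted p 0.0334, edgeR). FCHO1, a muniscin that starts clathrin pits and activates AP-2, was at 6.18 and 6.79 CPM in control and 4.03 and 4.04 CPM in siRAB3IP. It fell by 0.62 on the log2 scale (SE 0.15, adjusted p 0.0176, edgeR), a call that ended without control replicate 2 or either siRAB3IP replicate. NUMBL, an endocytic adaptor related to NUMB, was at 10.3 and 10.1 CPM in control and 6.05 and 7.37 CPM in siRAB3IP. It fell by 0.54 (SE 0.16, adjusted p 0.0462, edgeR), and the call ended in 7 of 16 alternatives that keep the grouping. HIP1, which binds clathrin, fell by 0.49 (SE 0.08, adjusted p 0.00269, edgeR). The calls of AP2B1 and HIP1 did not both hold without siRAB3IP replicate 2, and their other alternatives are not given here.

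Of the membrane-shaping proteins, SH3GL2 (endophilin A1) was at 17.5 and 17.1 CPM in control, 23.1 and 25.1 CPM in siRAB3IP, and 14.0 and 15.9 CPM in siCAMSAP1. It rose in siRAB3IP by 0.54 ± 0.10 (adjusted p 0.00597, edgeR), a call that ended without siRAB3IP replicate 2. BIN1 (amphiphysin 2) was at 6.98 and 7.69 CPM in control, 9.49 and 10.3 CPM in siRAB3IP, and 12.3 and 10.3 CPM in siCAMSAP1. Both knockdowns lay above control, by 0.49 ± 0.14 (adjusted p 0.0343) and 0.66 ± 0.13 (adjusted p 0.0379, both edgeR). The caveolar coat gene CAVIN1 rose too, by 0.41 ± 0.10 in siRAB3IP (adjusted p 0.0216) and 0.48 ± 0.10 in siCAMSAP1 (adjusted p 0.0486, edgeR). The caveolin genes did not move together. CAV2 was called higher in siRAB3IP (0.38 ± 0.08, adjusted p 0.0118, edgeR) and was not called in siCAMSAP1 (0.21 ± 0.08). CAV1 libraries lay below control in both knockdowns (-0.19 ± 0.08 in siRAB3IP and -0.22 ± 0.08 in siCAMSAP1), neither called. The siCAMSAP1 calls of BIN1 and CAVIN1 ended in 8 and 9 of 16 alternatives that keep the grouping. Those of BIN1, CAVIN1 and CAV2 in siRAB3IP did not all hold without siRAB3IP replicate 2, and their other alternatives are not given here.

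TFRC, the transferrin receptor and a classical AP-2 cargo, was at 584 and 468 CPM in control, 382 and 328 CPM in siRAB3IP, and 591 and 597 CPM in siCAMSAP1. It fell in siRAB3IP by 0.51 (SE 0.12, adjusted p 0.0155, edgeR), a call that ended without control replicate 1 or siRAB3IP replicate 2. Both siRAB3IP libraries were below all others. Against siCAMSAP1, siRAB3IP was lower in TFRC (-0.71 ± 0.12, adjusted p 0.003), FCHO1 (-0.74 ± 0.15, adjusted p 0.00804) and NUMBL (-0.63 ± 0.16, adjusted p 0.0288) and higher in SH3GL2 (0.72 ± 0.11, adjusted p 0.00154, all edgeR). The NUMBL call ended without either siRAB3IP replicate or siCAMSAP1 replicate 1, with a range of -0.83 to -0.39, and the FCHO1 call without siRAB3IP replicate 2 or siCAMSAP1 replicate 2. In that comparison 4 of the 74 genes were higher and 4 lower, where 4.89% and 3.96% of all genes were.

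**Figure D4:**
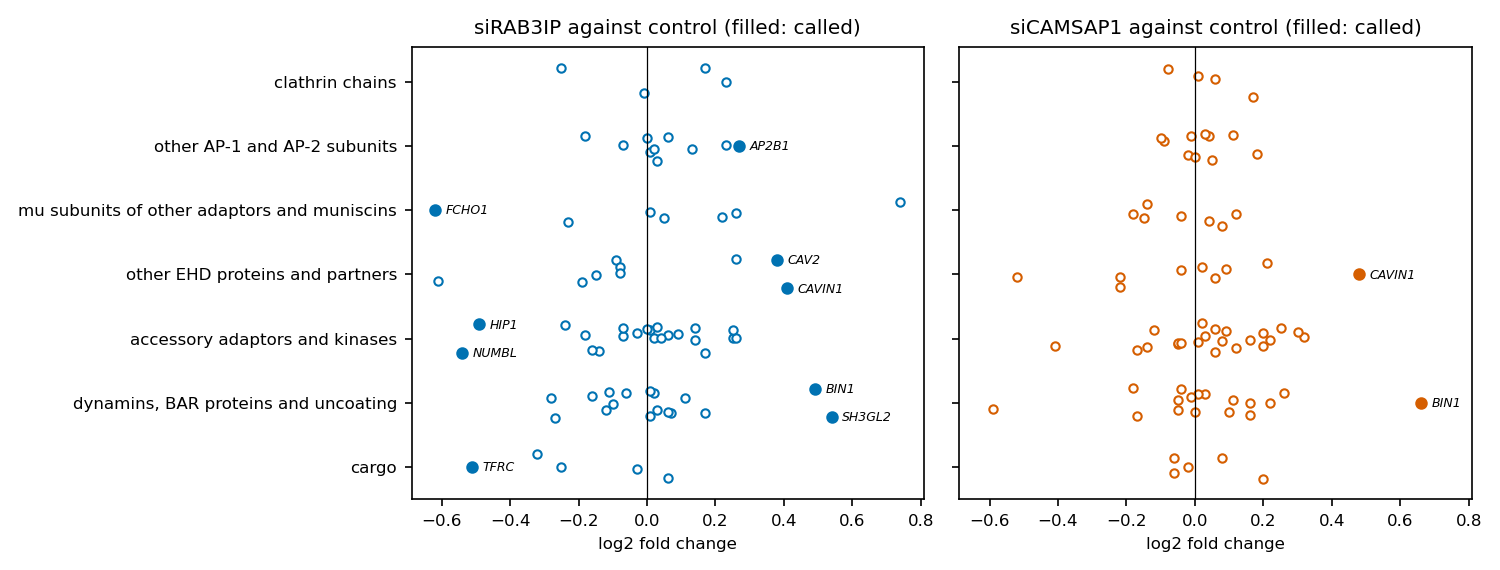
Log2 fold change (horizontal axis) of the 74 listed genes by role in siRAB3IP and in siCAMSAP1 against control, with points spread vertically only for legibility. Filled points were called over all genes: 9 in siRAB3IP and 2 in siCAMSAP1.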

How the data were processed

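Poly(A) RNA libraries were made with a TruSeq RNA kit. The authors made the deposited counts, in fragments per gene, with featureCounts 1.6.0 on primary alignments with both ends mapped, with no strand option, on hg19, per the file headers. The submitters' processing notes also name STAR and DESeq2, whose versions are not given in the sources used here. Each deposited signal column holds counts that the authors divided by a size factor per library. The deposited log2 fold changes and adjusted p-values were made by the authors and cover genes past their threshold.

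CPM is fragments scaled to 1000000 assigned, and RPKM divides it by total exon length. That length includes bases shared with other genes, which lowers the RPKM of STON1 and, slightly, of PACSIN2. The main test was edgeR 4.0.16 (R 4.3.3) with TMM scaling, the default low-count filter and the quasi-likelihood test at its default settings, with 3 groups in 1 model of 6 libraries and 3 residual degrees of freedom. "Called" means a Benjamini-Hochberg adjusted p under 0.05 over the 22331 genes tested. A floor of 3 counts stands for 0.0757 to 0.0803 CPM. Scripts were tested on simulated data. Each SE of an edgeR fit is the absolute log2 fold change divided by the square root of the quasi-likelihood F statistic. It thus rests on a spread pooled over the libraries fitted and moderated across genes, not on the gene's own compared libraries alone. Intervals are 1.96 SE either side, a normal approximation, and cover that spread between libraries.

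The 10 genes and the lists were chosen with earlier results of these data known. Named list genes are, per comparison, the 4 called genes with the largest absolute fold change. Where fewer were called, all of them are named. Genes that share exon bases with the 10 are named besides. AP2B1, HIP1, CAV1 and CAV2 were added after their values were seen. Symbols came from a reference list of gene names, and from GENCODE release 29 for genes absent from it. Replicate numbers come from the deposited table names. Differences between replicates 1 and 2 correlated across 11784 genes between groups (r 0.45, 0.53 and 0.44, genes not being independent), so a replicate block was fitted as an alternative. Other alternatives were upper-quartile or RLE scaling, leaving out the filter, a mean of at least 5 CPM, the 4 libraries compared, DESeq2 1.42.0, limma-voom (limma 3.58.1), the grouping by record titles, and leaving out each library. A robust estimate of the spread and a fit with no abundance trend were added after seeing the data.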

Additional observations from a re-analysis of the deposited data

Results flagged for a closer look

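Fold changes of 3 genes differed between the knockdowns by a test of the difference itself, siRAB3IP against siCAMSAP1 over all genes. The difference, siRAB3IP minus siCAMSAP1 on the log2 scale, was 1.06 for PACSIN2, -0.41 for PACSIN3 and -1.14 for STON1. The genes were chosen with these values known.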

How the results depend on the processing

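Grouped by record titles, 0 genes, 0 of the 10 genes and 0 of the 74 listed genes were called in each comparison. The sign then turned for PACSIN3 (0.16), STON1 (0.78), FCHO1 (0.35), NUMBL (0.40), SH3GL2 (-0.44) and TFRC (0.09) in siRAB3IP against control. It also turned for PACSIN2 (-0.15), PACSIN3 (0.24), STON1 (0.64), FCHO1 (0.22), SH3GL2 (-0.44), TFRC (0.17) and NUMBL (0.41) in siRAB3IP against siCAMSAP1. The genotype field would swap the knockdown names and reverse the signs of this last comparison. With a replicate block, 5371, 1408 and 4630 genes were called against 2597, 210 and 1977 without it, in siRAB3IP against control, siCAMSAP1 against control and siRAB3IP against siCAMSAP1. The block called 23, 6 and 19 listed genes against 9, 2 and 8, and 6 of the 10 genes against 3 between the knockdowns. In siCAMSAP1 against control, 560 genes were called with no filter and 388 by DESeq2. There 1 listed gene was called with RLE scaling, with upper-quartile scaling and by limma-voom, and 0 with a mean of at least 5 CPM, with the 4 libraries compared and with no abundance trend. Between the knockdowns, 6 of the 10 genes were called with no filter, and 5 with the 4 libraries compared and by DESeq2. DESeq2 called 2044 genes there over all genes. The share over all genes is not given for each of these settings. Nothing is therefore read from these counts about the 10 genes or the listed genes. The robust estimate, added after seeing the data like the fit with no abundance trend, called 2671, 237 and 2076 genes, and the latter called 2251, 143 and 1755.

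Leaving out 1 library, the genes called ranged from 1034 to 2491, 67 to 210 and 620 to 2296 in the 3 comparisons. Of the 10 genes, 1 to 3, 2 to 2 and 2 to 5 were called, and of the listed genes 1 to 9, 0 to 1 and 3 to 10. The lowest counts of all genes came without siRAB3IP replicate 2 (1034 and 620) and without siCAMSAP1 replicate 2 (67). A group left with 1 library is assumed to vary like the others. The cause of these shifts was not tested. Of the 10 genes, PACSIN1 had the fewest fragments, 52 to 88 a library.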
